A study of Homo sapiens with 6 samples.

Results

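Histone messenger RNAs were compared between UGT2B17 knockdown and control arrays in MEC-1, a cell line of leukemic B cells that was established from chronic lymphocytic leukemia. Replication-dependent histone genes were taken as the genes whose symbol is H1-1 to H1-5, or begins with H2AC, H2BC, H3C or H4C and a number, and which had a probe set annotated to that symbol alone. The rule gave 56 genes of 18404 tested: 5 for H1, 14 for H2A, 17 for H2B, 8 for H3 and 12 for H4. Each had 1 probe set. By RefSeq (GRCh38.p14) 55 are protein coding and H2BC19P is a pseudogene. A further 14 protein-coding genes that meet the symbol rule were read only on probe sets shared by several genes, and are described separately.

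Both groups were the same cell line, given an shRNA by lentivirus and grown in medium without phenol red or antibiotics. The knockdown group is 3 arrays from cells with a UGT2B17 shRNA, and the control group 3 arrays from cells with a scrambled shRNA. UGT2B17 is an enzyme that adds glucuronic acid to steroid hormones and drugs. The labels give neither the number of hairpins nor whether replicates were separate cultures, so the p-values reflect array-to-array spread alone, which may be technical, and effects of the hairpin on other transcripts cannot be told apart from those of lower UGT2B17. All values are deposited log2 values, and a fold change is knockdown minus scrambled.

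Histones H2A, H2B, H3 and H4 form the protein core around which DNA is wound, and H1 binds the DNA that links these particles. Most of their genes lie in clusters, lack introns and are transcribed mainly in S phase, when new DNA has to be packaged. Their messenger RNAs normally end in a stem-loop in place of a poly(A) tail, and are made with the help of NPAT, the U7 small nuclear ribonucleoprotein and the stem-loop binding protein SLBP. Some members, among them H2BC12, H2BC4, H2BC5, H2BC21, H2AC6 and H1-2, are known to give polyadenylated transcripts as well.

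The targeted gene was lower on its only single-gene probe set. UGT2B17 read 3.95, 3.69 and 3.91 log2 units on scrambled arrays 1 to 3 and 3.19, 3.27 and 3.17 on knockdown arrays 1 to 3, a log2 fold change of -0.64 ± 0.08 (SE; limma, adjusted p = 0.00654). This probe set is dim, at percentile 8.02 of all probe sets. Over all genes, 311 fell and 354 rose, or 1.69% and 1.92% of 18404 (limma, Benjamini-Hochberg adjusted p under 0.05). Scrambled replicate 3 had the lowest weight in limma's array weighting, 0.250, where the other 5 arrays had 0.549 to 6.12. Of 8 listed B cell markers 7 were measured; MS4A1, which encodes CD20, read 12.2 to 12.4 and CD22 read 11.8 to 12.1 over the 6 arrays, and none of the 7 passed. PAX5, a transcription factor of B cells, had a fold change of -0.21 (limma, adjusted p = 0.162), with groups that did not overlap and scrambled replicate 3 the highest array. Of the 7 markers 3 were below 0 and 4 above. In CD37 at 0.20, CD22 at 0.10 and MS4A1 at 0.07 all knockdown arrays lay above all controls, and scrambled replicate 3 was the lowest array. Over all 18404 genes, 2165 had all knockdown arrays above all controls, and 4453 had scrambled replicate 3 as the lowest array. The summed log2 level of the B cell markers was 76.3 to 76.4 in the knockdown and 75.7 to 76.5 in the controls. For 8 T and NK cell markers it was 43.7 to 44.6 and 43.7 to 44.0, and for 7 monocyte and granulocyte markers 37.8 to 38.0 and 38.3 to 39.3. For 6 erythroid and platelet markers it was 32.4 to 32.7 and 31.8 to 32.5, and for 8 epithelial and fibroblast markers 50.0 to 50.1 and 49.4 to 50.9. None of these marker genes passed either (limma; at an unadjusted p under 0.05 the 5 lists held 4 lower and 2 higher genes), array values have no zero, and the part of other cell types in the histone results was not tested. The integrin gene ITGAM was nearest to the threshold, at -0.60 (adjusted p = 0.0659): it read 7.35, 7.26 and 6.72 on scrambled arrays 1 to 3 and 6.49, 6.59 and 6.46 on knockdown arrays 1 to 3, so that scrambled replicate 3 was its lowest control. Without that array ITGAM passed, at -0.79 (adjusted p = 0.00248), as did the epithelial marker EPCAM, at -0.47 (adjusted p = 0.0411; -0.36 and adjusted p = 0.140 with all arrays).

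Histone genes were mostly lower in the knockdown, by small amounts, with H2BC12 the exception in size. Of the 56 genes, 53 (94.6%) had a log2 fold change below 0, against 50.7% of all genes. This direction was not particular to histones. It held for 24 of 27 S phase genes (88.9%) and 20 of 22 genes of G2 and mitosis (90.9%). For histone transcription and 3′ processing it held for 17 of 21 genes (81.0%). The share was 60.0% for histone messenger RNA decay, 65.0% for chaperones and 66.7% for variant histones. Among the 56, 5 fell (H2BC12, H2BC4, H2BC21, H2BC11 and H4C8), 0 rose and 51 did not pass. At an unadjusted p under 0.05 there were 31 lower and 0 higher. Over all 18404 genes 1739 were lower and 1602 higher at that threshold, which is the base for each such count here. Lower calls made up 1.69% of all genes. The median fold change of the 56 was -0.27 log2 units, against -0.002 for all genes, and their range was -0.92 to 0.29. For 35 of the 56 the highest knockdown array was lower than the lowest scrambled array, which held for 13.1% of all genes. None of the 56 had the opposite order.

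H2BC12, one of the many genes for histone H2B, fell the most of the 56. It read 10.20, 10.33 and 10.37 log2 units on scrambled arrays 1 to 3 and 9.42, 9.35 and 9.38 on knockdown arrays 1 to 3. The groups lay far apart, and the 3 arrays of each were close together. The log2 fold change was -0.92 ± 0.07 (SE; 95% interval -1.07 to -0.76), which left 53.0% of the control signal (limma, adjusted p = 0.000949). It was the 13th lowest fold change among all 18404 genes. Without scrambled replicate 3 the fold change was -0.88 (adjusted p = 0.00177), and the call held in each of the 16 alternatives computed, with adjusted p from 1.35e-05 to 0.0137.

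H2BC4, another H2B gene, read 7.37, 7.62 and 7.74 on the scrambled arrays and 7.07, 7.05 and 7.13 on the knockdown arrays. The groups did not overlap, and the fold change was -0.49 ± 0.10 log2 units (SE; adjusted p = 0.0291). H2BC21, an H2B gene of the HIST2 cluster, read 7.93, 8.05 and 8.33 against 7.63, 7.68 and 7.40, a fold change of -0.53 ± 0.12 (adjusted p = 0.0434). Its knockdown arrays were more scattered than those of the other genes that fell, yet all lay below the controls. H2BC11 read 6.42, 6.25 and 6.65 against 6.01, 5.99 and 5.99, a fold change of -0.44 ± 0.10 (adjusted p = 0.0464). H4C8, which encodes histone H4, read 8.81, 8.92 and 9.22 against 8.50, 8.42 and 8.43, a fold change of -0.53 ± 0.10 (adjusted p = 0.0282). In each of these 4 genes, as in H2BC12, scrambled replicate 3 was the highest array. Their calls were less firm than that of H2BC12. Without scrambled replicate 3, H2BC4, H2BC11 and H4C8 still passed, at fold changes of -0.41, -0.33 and -0.41, while H2BC21, at -0.42, did not (adjusted p = 0.0546). All 4 calls were lost when any knockdown array was left out, those of H2BC4, H2BC21 and H4C8 also without scrambled replicate 2, and that of H2BC11 without scrambled replicate 1.

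**Figure D1:**
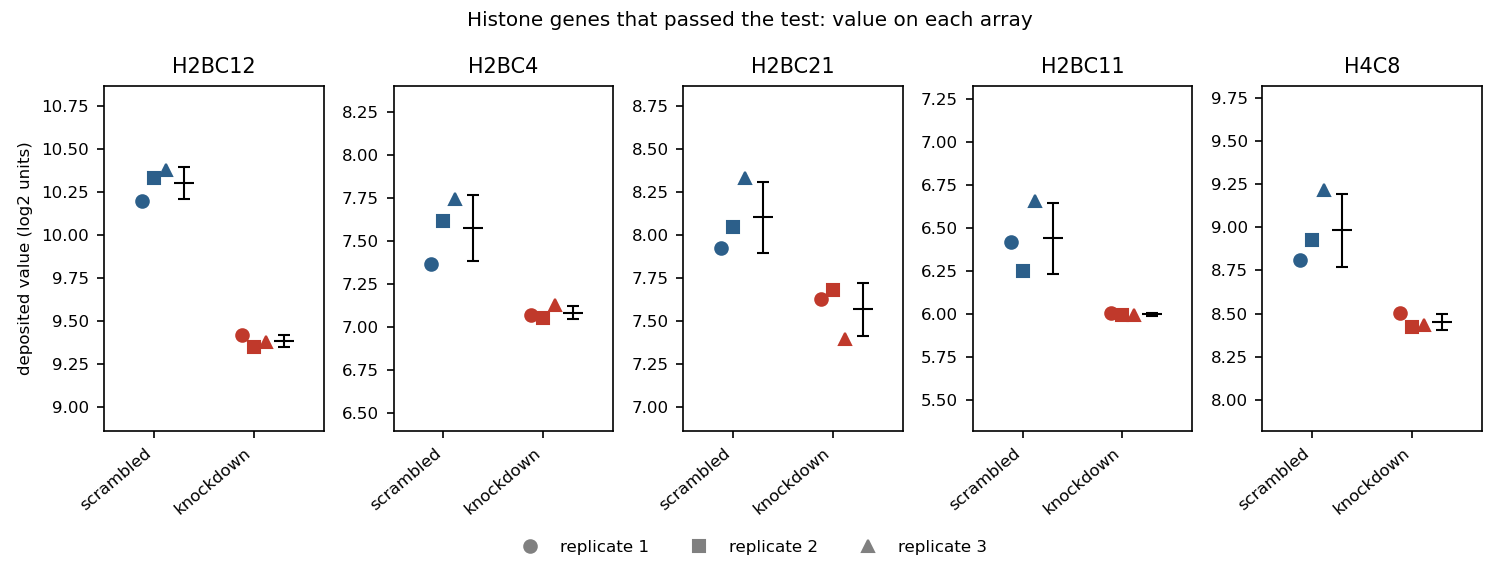
Deposited value (log2 units) on each array for the 5 histone genes that passed. Points are single arrays, their shape marks the replicate number, and black bars are the group mean and SD (n = 3); every panel spans the same height. In H2BC12 the arrays lie near 10.3 with scrambled shRNA and near 9.38 with the knockdown, while in the other 4 genes the groups are closer. Scrambled replicate 3 is the highest array in all 5 genes.

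The upstream sequences of the 5 genes that fell are shown because histone promoters carry shared motifs. These genes share a direction by their selection, and whether they vary together was not tested. They are the 250 bases before the RefSeq start (GRCh38.p14), 5′ to 3′ on the strand of the gene, with matches on either strand to the octamer ATTTGCAT, to CCAAT and to TATAAA in capitals; some TATAAA matches overlap each other.

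H2BC12, chr6:27146859-27147108 (minus strand): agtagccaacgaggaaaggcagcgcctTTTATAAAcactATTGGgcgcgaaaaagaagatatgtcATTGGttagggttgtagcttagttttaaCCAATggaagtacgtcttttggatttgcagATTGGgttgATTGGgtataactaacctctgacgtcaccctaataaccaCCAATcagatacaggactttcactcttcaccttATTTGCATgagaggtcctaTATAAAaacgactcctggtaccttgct
H2BC4, chr6:26123927-26124176 (minus strand): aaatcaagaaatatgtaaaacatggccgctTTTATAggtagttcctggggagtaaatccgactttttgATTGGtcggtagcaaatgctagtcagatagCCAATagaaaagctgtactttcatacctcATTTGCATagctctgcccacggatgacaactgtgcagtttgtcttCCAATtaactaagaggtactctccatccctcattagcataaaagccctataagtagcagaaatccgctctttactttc
H2BC21, chr1:149886683-149886932 (minus strand): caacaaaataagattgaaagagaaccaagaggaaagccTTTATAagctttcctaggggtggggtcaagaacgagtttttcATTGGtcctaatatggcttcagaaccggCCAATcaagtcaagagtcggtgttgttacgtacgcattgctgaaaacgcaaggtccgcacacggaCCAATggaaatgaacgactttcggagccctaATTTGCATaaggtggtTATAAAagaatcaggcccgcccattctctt
H2BC11, chr6:27132796-27133045 (minus strand): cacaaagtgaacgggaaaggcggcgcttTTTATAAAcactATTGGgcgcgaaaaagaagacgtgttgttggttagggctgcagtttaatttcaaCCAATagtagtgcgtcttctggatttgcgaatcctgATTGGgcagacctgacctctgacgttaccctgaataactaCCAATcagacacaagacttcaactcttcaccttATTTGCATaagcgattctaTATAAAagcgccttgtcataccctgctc
H4C8, chr6:26285535-26285784 (minus strand): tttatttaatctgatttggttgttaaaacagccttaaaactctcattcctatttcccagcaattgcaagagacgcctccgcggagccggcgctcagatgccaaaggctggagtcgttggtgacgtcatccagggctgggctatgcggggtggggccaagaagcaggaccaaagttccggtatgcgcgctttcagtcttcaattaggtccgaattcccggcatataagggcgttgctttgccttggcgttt

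All 4 H2B promoters held 1 octamer, the binding motif of POU domain factors such as OCT1, and at least 3 CCAAT matches. The H4C8 promoter held none of the 3 motifs. Among all 27305 genes with a 250-base promoter entry the octamer was present in 1.66%, CCAAT in 33.0% and TATAAA in 11.1%. Of the 56 histone genes 50 had an entry. The octamer was in 13 of 16 H2B and 10 of 13 H2A promoters and in none of the 5 H1, 6 H3 and 10 H4 promoters. Of the 23 genes with an octamer 4 fell, and of the 27 without it 1 fell; their median fold changes, which mix histone types, were -0.23 and -0.29 log2 units. Within H2B the median was -0.39 for the 13 genes with the octamer and -0.22 for the 3 without. The octamer was not particular in this: for TATAAA the H2B medians were -0.41 for the 12 genes with a match and -0.19 for the 4 without. Of the 34 histone genes with TATAAA 4 fell, and of the 16 without it 1 fell. For CCAAT 4 of 43 genes with a match fell and 1 of 7 without. With so few H2B genes lacking the octamer or TATAAA, these differences were not tested. A match is only a match of letters in this window.

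H2B was the type with the most genes that fell, 4 of 17. Its median fold change was -0.26 log2 units, and 11 of 17 had groups that did not overlap. The 4 H2B genes known to give polyadenylated transcripts as well were the only histone genes here whose RefSeq span exceeds 1000 bases: H2BC12 (8566), H2BC4 (10757), H2BC5 (13229) and H2BC21 (2224). Of these, 3 fell. The remaining one, H2BC5, read 7.69, 7.60 and 8.09 with scrambled shRNA and 7.47, 7.21 and 7.33 with the knockdown, a fold change of -0.45 that did not pass (adjusted p = 0.0958), although its groups did not overlap. The median over the 4 was -0.51, and -0.41 without scrambled replicate 3. For the other 13 H2B genes it was -0.21 and -0.13, and 1 of the 13, H2BC11, fell. These genes were set apart with earlier results of these data known, so the medians are a description. The other members known to give polyadenylated transcripts read nearer 0: H2AC6 had -0.09 ± 0.08 (SE; adjusted p = 0.607), with overlapping groups, and H1-2 had -0.40 ± 0.11 (adjusted p = 0.105). Which transcript form a probe set reads was not tested.

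The highest values among H2B were H2BC26 at 0.29 ± 0.13 (SE; adjusted p = 0.300) and the pseudogene H2BC19P at 0.11 ± 0.07 (adjusted p = 0.439), named here after their values were seen. H2BC26 read 6.08, 5.98 and 6.54 in the knockdown and 5.83, 5.99 and 5.90 in the controls, so that the groups overlapped and knockdown replicate 3 alone stood high. H2BC26 and the H2A gene H2AC25, at -0.01, are the measured genes of the small HIST3 cluster, and H4C16, at 0.01, lies outside the clusters. By comparison, all 48 measured genes of the large HIST1 cluster on chromosome 6 had fold changes below 0, with a median of -0.30. The 5 measured genes of the HIST2 cluster had a median of -0.16. H2BC26, H2AC25 and H4C16 are dim, at percentiles 44.5, 43.3 and 47.1 of all probe sets. Over all clusters, the 15 histone genes at or under the median level had a median of -0.09, and the 41 above it -0.31. Whether clusters differ apart from their signal level was not tested.

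No H2A gene passed, although all 14 were below 0 (median -0.19 log2 units, range -0.32 to -0.01; 2 at an unadjusted p under 0.05). H2AC11 read 8.37, 8.36 and 8.59 with scrambled shRNA and 8.19, 8.12 and 8.08 with the knockdown, a fold change of -0.31 ± 0.08 (SE; adjusted p = 0.0725). H2AC1, a gene known from testis, had -0.23 ± 0.07 (adjusted p = 0.121). H2AC8 read 5.78, 5.87 and 6.40 against 5.70, 5.70 and 5.69, where scrambled replicate 3 made most of the difference: the fold change was -0.32 with it and -0.13 without it. The groups did not overlap for 6 of the 14. Without scrambled replicate 3 the median of H2A was -0.06, and 10 of 14 stayed below 0.

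No H3 or H1 gene passed either. Among the 8 H3 genes, all below 0 with a median of -0.34 log2 units and a range of -0.54 to -0.07, 5 had an unadjusted p under 0.05. H3C2 read 11.86, 11.96 and 12.16 with scrambled shRNA and 11.62, 11.64 and 11.63 with the knockdown. Its groups did not overlap, and the fold change of -0.37 ± 0.08 (SE) lay just outside the threshold (adjusted p = 0.0506). H3C10 read 9.11, 9.16 and 9.53 against 8.87, 8.71 and 8.81, a fold change of -0.47 ± 0.11 (adjusted p = 0.0575). Both passed without scrambled replicate 3, at -0.28 and -0.34 (adjusted p = 0.0485 and 0.0404), where fewer arrays entered the fit but the controls were less scattered. H3C8 had -0.54 ± 0.16 (adjusted p = 0.108). Of the 5 linker histones, H1-5 read 11.23, 11.40 and 11.94 with scrambled shRNA and 11.09, 10.94 and 10.82 with the knockdown, a fold change of -0.57 ± 0.16 (adjusted p = 0.105). H1-2 read 8.81, 9.00 and 9.31 against 8.65, 8.66 and 8.63. In both genes the knockdown arrays lay below the controls, and scrambled replicate 3 was the highest control. It stood far above the other controls in H1-5, while the controls of H1-2 were spread more evenly. H1-3 had -0.16 ± 0.08 (adjusted p = 0.331). The median of the 5 was -0.16 and their range -0.57 to -0.08; 2 of them had an unadjusted p under 0.05.

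H4 genes were lower with the exception of H4C16: 11 of 12 were below 0, 9 had groups that did not overlap and 10 had an unadjusted p under 0.05, but H4C8 alone passed. The median was -0.34 log2 units, in a range of -0.54 to 0.01. H4C3 read 11.55, 11.63 and 12.02 with scrambled shRNA and 11.32, 11.29 and 11.30 with the knockdown, a fold change of -0.43 ± 0.11 (SE; adjusted p = 0.0795), and passed without scrambled replicate 3, at -0.29 (adjusted p = 0.0445). H4C5 read 9.69, 9.70 and 10.05 against 9.43, 9.48 and 9.37, a fold change of -0.39 ± 0.10 (adjusted p = 0.0752). In both genes the knockdown arrays were close together, and the spread lay in the controls. Medians of the histone types were not tested against each other.

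**Figure D2:**
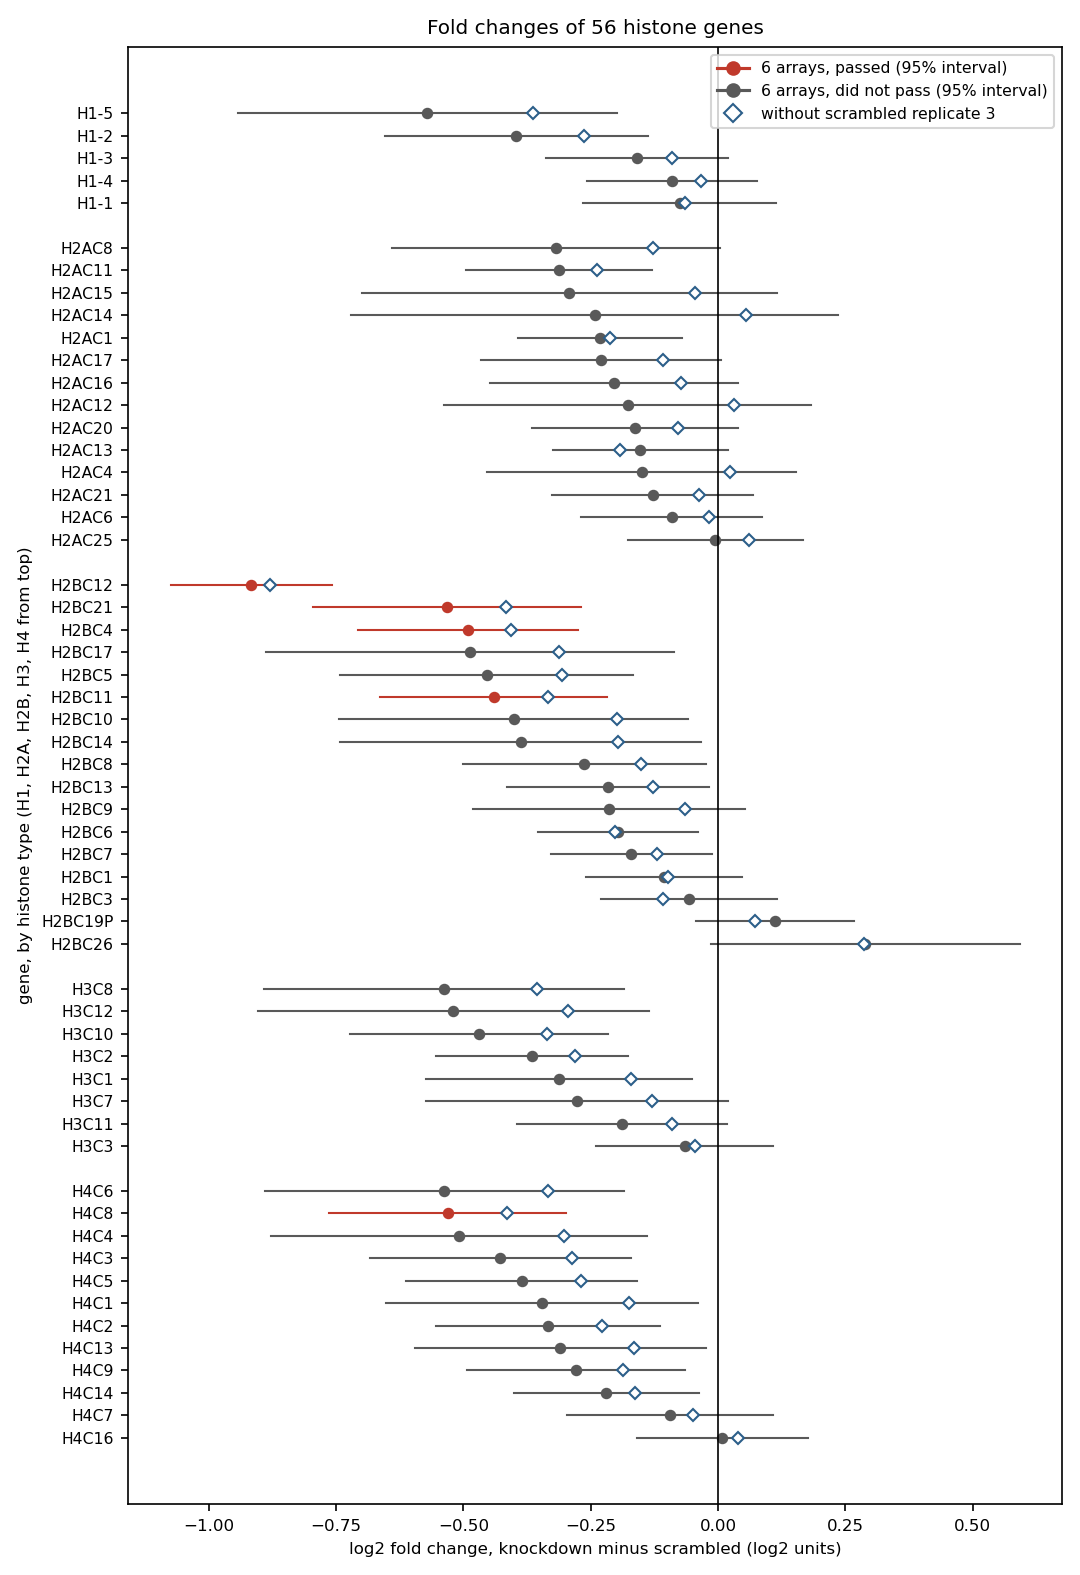
Log2 fold change (knockdown minus scrambled, log2 units) of the 56 histone genes, grouped from top to bottom as H1, H2A, H2B, H3 and H4. Filled circles with 95% intervals come from 6 arrays, in red where the gene passed, and open diamonds leave out scrambled replicate 3. Of the circles 53 lie left of 0, H2BC12 lies furthest left, and most diamonds lie nearer to 0 than their circle.

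Scrambled replicate 3 carried much of the size of these differences. It was the highest of the 6 arrays for 46 of the 56 genes, or 82.1%, against 28.9% of all genes, and the median gene lay 0.33 log2 units higher there than in the mean of scrambled replicates 1 and 2. For all genes this gap was 0.006. Related lists also had scrambled replicate 3 as the highest array for most genes. The share was 81.5% for S phase genes, 76.2% for histone transcription and 3′ processing and 72.7% for G2 and mitosis. It was 70.0% for chaperones, 66.7% for variant histones and 60.0% for histone messenger RNA decay. For the 41 histone genes above the median level of all probe sets, scrambled replicate 3 was the highest array in all 41; for the 15 dimmer ones it was in 5. The median deviation of the 56 genes from their own 6-array mean was -0.10, -0.15 and -0.16 on knockdown arrays 1 to 3 and -0.02, 0.05 and 0.39 on scrambled arrays 1 to 3. Scrambled replicate 1 therefore lay nearer to the knockdown arrays than to scrambled replicate 3. For H2A, scrambled replicate 1, at -0.057, also lay below 0, beside knockdown replicate 1 at -0.061.

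Without scrambled replicate 3 the direction held for most genes, at a smaller size. The median of the 56 was then -0.16 log2 units, and 49 were below 0. By type it was -0.09 for H1, -0.06 for H2A, -0.20 for H2B, -0.23 for H3 and -0.21 for H4. All 3 knockdown arrays lay below scrambled replicates 1 and 2 for 35 of the 56 genes, where 17.9% of all genes did. In that fit 7 histone genes fell: H2BC4, H2BC11, H2BC12, H3C2, H3C10, H4C3 and H4C8. That fit called 2.0% of all genes as lower.

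**Figure D3:**
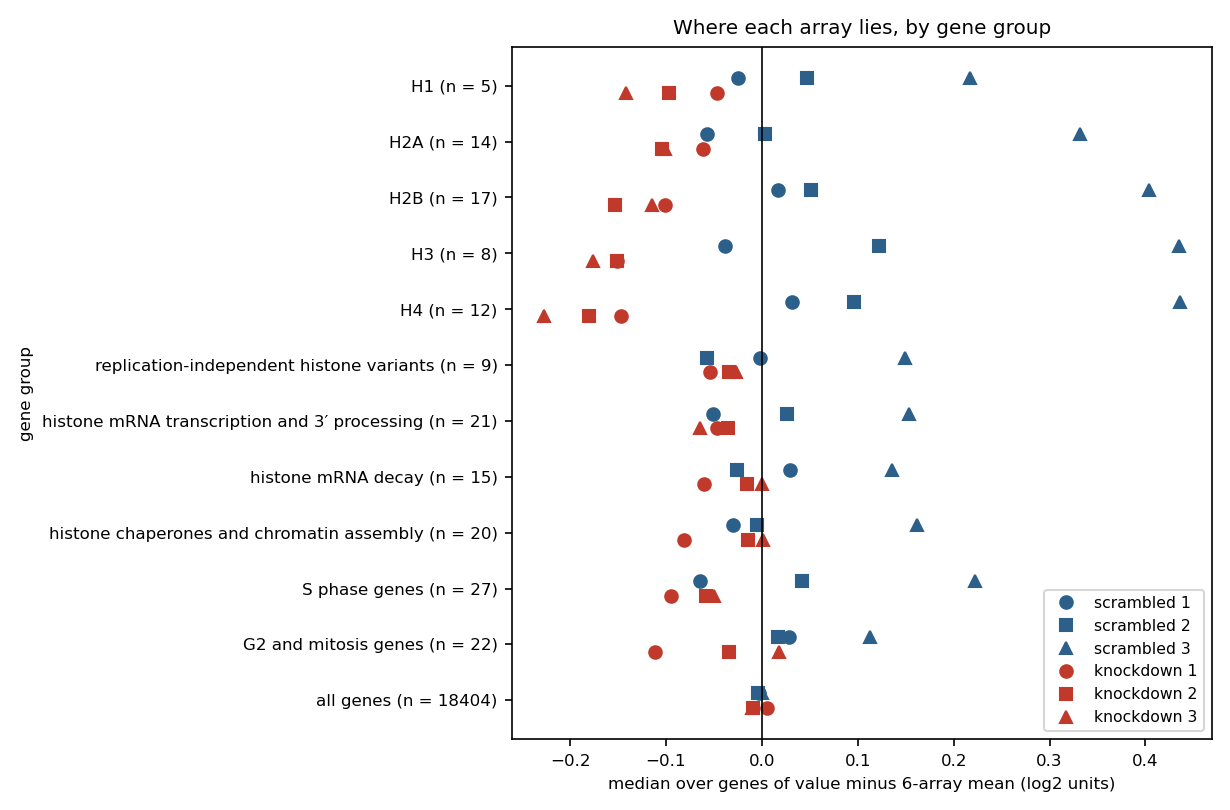
Position of each array by gene group: the median over genes of the value minus that gene's mean over the 6 arrays (log2 units), for the 5 histone types, 6 related lists and all genes. Scrambled replicate 3 (blue triangles) lies furthest right in each histone type, at 0.22 to 0.44, and in each related list, at 0.11 to 0.22, while all 6 arrays lie near 0 over all genes.

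Genes of histone supply and of the cell cycle also stood highest on scrambled replicate 3, by less. Among 27 measured S phase genes the median deviation was 0.22 log2 units on scrambled replicate 3 and -0.09 to 0.04 on the other arrays. Of these genes 1 rose, 0 fell and 26 did not pass (at an unadjusted p under 0.05, 10 were lower and 1 higher). RRM2, a subunit of ribonucleotide reductase, rose: it read 8.79, 8.88 and 9.00 with scrambled shRNA and 9.23, 9.38 and 9.27 with the knockdown, a fold change of 0.40 ± 0.08 (SE; adjusted p = 0.0279). That call was lost in 8 of 16 alternatives, among them when any knockdown array was left out, without scrambled replicate 1 or 2, with arrays centred on their median (adjusted p = 0.0540), and with all deposited probe sets tested. RRM1, its partner subunit, had -0.20, GINS1, a part of the replicative helicase, -0.24, and TYMS, thymidylate synthase, -0.20, none of which passed. The median of the list was -0.11, and -0.07 without scrambled replicate 3. Of 22 genes of G2 and mitosis 0 passed (3 lower and 0 higher at an unadjusted p under 0.05), with a median of -0.08; CCNB1, cyclin B1, had -0.26, CCNB2 -0.18, KIF11 -0.17 and AURKA -0.13. Whether the arrays differ in the share of cells in S phase was not tested, and in RNA from whole cultures fewer such cells and less RNA per cell cannot be told apart.

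The factors that make and degrade histone messenger RNA showed no change that passed. Of 24 listed genes of histone transcription and 3′ processing 21 were measured, with a median of -0.14 log2 units (4 lower and 1 higher at an unadjusted p under 0.05). CASP8AP2, a processing factor also called FLASH, had -0.18 ± 0.07 (SE; adjusted p = 0.218), and the Sm proteins SNRPB and SNRPD3 had -0.24 and -0.22. NCBP2, the small subunit of the cap-binding complex, was the highest, at 0.20 ± 0.06 (adjusted p = 0.121), and its groups did not overlap. NPAT, the coactivator of histone genes, had -0.04 ± 0.06, and SLBP 0.04 ± 0.07, both with overlapping groups; these 2 were named after their values were seen. Of 15 genes of histone messenger RNA decay none passed (1 lower and 1 higher at an unadjusted p under 0.05). LSM6, of the ring that binds the RNA tail, had -0.24, UPF1, a helicase of RNA decay, -0.18, EXOSC10, an exosome nuclease, -0.13, and XRN1, the 5′ to 3′ exonuclease, 0.26. XRN1 was lowest on scrambled replicate 3, where it read 9.47 against 9.77 to 10.02 elsewhere, and its fold change without that array was 0.14.

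Chaperones and variant histones stayed within small differences. None of 20 chaperone and chromatin assembly genes passed (3 lower and 0 higher at an unadjusted p under 0.05; median -0.07 log2 units, and -0.02 without scrambled replicate 3). ASF1B, which hands H3 and H4 to assembly factors, had -0.20 ± 0.06 (SE; adjusted p = 0.132), the FACT subunits SUPT16H and SSRP1 had -0.24 and -0.26, and HIRA, of the replication-independent pathway, had -0.26. Of 13 listed histone variants whose synthesis is not tied to replication, or only partly so, 9 were measured and none passed (3 lower and 1 higher at an unadjusted p under 0.05). H2AX, the variant phosphorylated at DNA breaks, had -0.21 ± 0.06 (adjusted p = 0.127), H2AZ1 -0.23 and H2AZ2 -0.15, each with groups that did not overlap. The linker variant H1-10 had 0.24 ± 0.07 (adjusted p = 0.103), with all knockdown arrays, at 7.72 to 7.89, above the controls, at 7.55 to 7.58. The median of the 9 was -0.09, and 0.003 without scrambled replicate 3.

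Neighbouring H2A and H2B genes often lie head to head and share the DNA between their starts, so that a pair can be compared within each array. By RefSeq gene order and strand, 9 such pairs had both genes measured and a promoter entry, which gives the strand, for both. H2AC12 had no promoter entry, so H2AC12 and H2BC12 could not be assessed as a pair and are not among the 9. H2AC12 had a fold change of -0.18, with overlapping groups, and H2BC12 had -0.92. The value of H2BC4 minus that of H2AC6 was -1.33, -1.14 and -1.21 log2 units on scrambled arrays 1 to 3 and -1.68, -1.65 and -1.55 on knockdown arrays 1 to 3. The groups did not overlap, and H2BC4 was lower relative to H2AC6 by 0.40 (difference of fold changes -0.40). H2BC21 minus H2AC20 was -1.41, -1.32 and -1.27 with scrambled shRNA and -1.74, -1.59 and -1.78 with the knockdown, a difference of -0.37, again without overlap. An exact permutation test, two-sided, gave p = 0.1 in both pairs, which is the least that groups of 3 can reach, and 0.45 when adjusted over the 9 pairs. The other 7 pairs overlapped, with differences from -0.26 for H2BC17 and H2AC17 to 0.29 for H2BC26 and H2AC25. A difference within an array shows unequal change only. It did not remove the spread of scrambled replicate 3 in every pair: H2BC13 minus H2AC13 was 3.06, 3.37 and 3.60 on scrambled arrays 1 to 3, and H2BC8 minus H2AC8 was 2.02, 1.95 and 1.74.

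**Figure D4:**
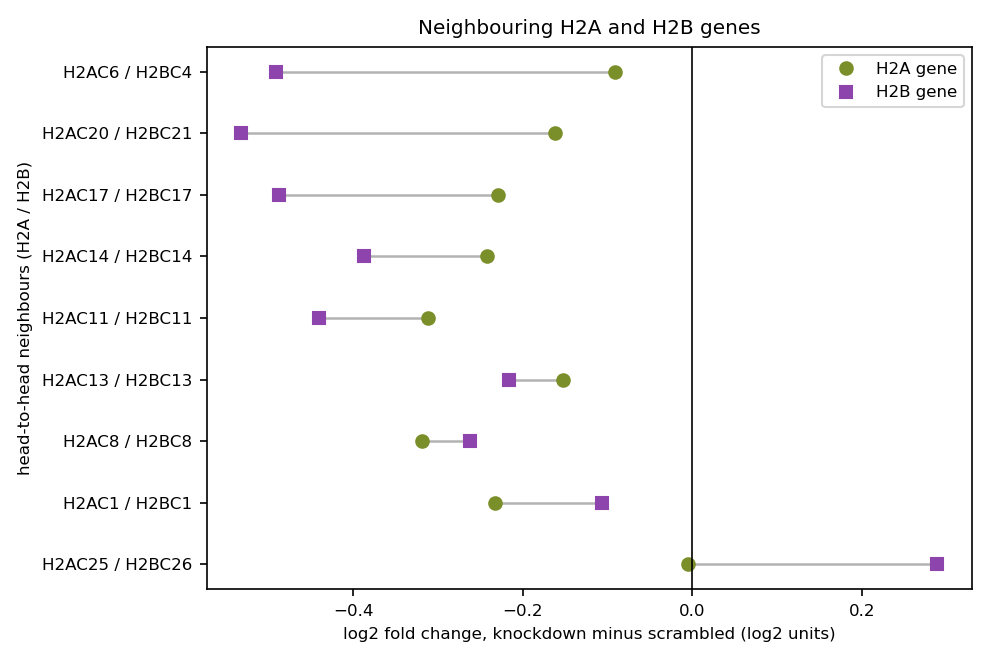
Log2 fold changes (knockdown minus scrambled, log2 units) of 9 head-to-head pairs, with the H2A gene as a circle and the H2B gene as a square joined by a line. H2BC4 at -0.49 and H2BC21 at -0.53 lie far from their partners H2AC6 at -0.09 and H2AC20 at -0.16, and H2BC26 is the only gene right of 0.

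Probe sets shared by several histone genes gave a similar range of values. There were 17, of which 16 had fold changes below 0, with a median of -0.28 log2 units. Scrambled replicate 3 was the highest array for 11. Of all 18404 genes, each read on 1 probe set, 50.7% were below 0, and 28.9% had that array highest. These shares are over genes and not over all probe sets. Several of the 17 name the same genes, such as H2BC18, and are not separate readings. The 17 carry the 14 genes without a probe set of their own. With all deposited probe sets tested together, 165 of the 18404 genes were called, lower or higher, on the probe set kept for them. In that test 1 of the 17 fell, the dim probe set annotated to H3C11 and H3C6. It read 5.13, 5.04 and 5.11 with scrambled shRNA and 4.46, 4.44 and 4.57 with the knockdown, a fold change of -0.60 ± 0.07 (SE; limma over all probe sets, adjusted p = 0.0281). Here scrambled replicate 3 did not stand apart. H3C11 on its own probe set had -0.19, so the probe sets naming this gene disagreed in size. The probe set of H2BC18, H2BP1 and H2BC21 read 7.32, 7.29 and 7.47 against 6.79, 6.86 and 6.94, a fold change of -0.50 that lay just outside the threshold (adjusted p = 0.0550). That of H2BC12, H2BC12L, H2BC17 and H2BC5 read 11.18, 11.23 and 11.49 against 11.03, 10.97 and 11.03, a fold change of -0.29 (adjusted p = 0.266), which is smaller than that of H2BC12 on its own probe set. Histone genes of a type are near-identical copies, so single-gene probe sets may also share signal, and values of single genes are uncertain to that extent.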

How the data were processed

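RNA of 6 MEC-1 samples was labelled with a whole-transcript biotin kit and hybridised to 1 array each, per the labels. The deposited log2 values were made by the authors with RMA, per the submitters' processing notes; its version, library files and build: not given in the sources used here. RMA compresses fold changes near background, and quantile normalisation hides shifts shared by most genes. The number of arrays limits the precision. No slide or scan batch is given in the labels.

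Of 32321 probe sets, 19158 carry 1 gene symbol in the platform annotation, 1388 several and 11775 none. The brightest probe set per symbol was kept, which left 18404 genes. Knockdown and scrambled arrays were fitted with limma 3.58.1 under R 4.3.3 (lmFit, eBayes, two-sided, no covariate, Benjamini-Hochberg over all genes, threshold 0.05), tested on simulated data. SDs are over 3 arrays. Sequences come from RefSeq, GRCh38.p14. Histone genes, related lists and tests were chosen with earlier results of these data known. Genes named are UGT2B17, each histone gene that passed, the 3 with the smallest p per histone type, the 6 with known polyadenylated transcripts and up to 4 per related list. H2BC26, H2BC19P, H4C16, H2AC25, H3C11, NPAT and SLBP fall outside this rule and were chosen after their values were seen. The same holds for H2AC12 and for genes named only as neighbours of a pair (H2AC17, H2BC17, H2AC20, H2BC13, H2AC13, H2BC8). Alternatives were scaling, a level filter, eBayes priors, array weights, probe set choice, a replicate block, leaving out each array and an adjusted p under 0.1; testing all deposited probe sets and leaving out H2BC19P were chosen after seeing the data.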

Additional observations from a re-analysis of the deposited data

How the results depend on the processing

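The call of 5 histone genes became 28 with array weights, 11 at an adjusted p under 0.1, 3 with every single-symbol probe set tested, 1 with all deposited probe sets tested, and 1 to 14 when single arrays were left out (1 without any knockdown array, 14 without scrambled replicate 1, 2 without scrambled replicate 2). The all-gene count of 665 became 3511 with array weights, 1207 at an adjusted p under 0.1, 165 with all deposited probe sets and 152 to 759 without single arrays. Fits with fewer arrays have fewer degrees of freedom. H2BC12 was called in every alternative computed; UGT2B17 too, with fold changes of -0.71 to -0.50. With the dimmer genes left out, the median fold change was -0.28 log2 units for H1 and -0.42 for H2B, over fewer genes. Without scrambled replicate 3 the H2A median went from -0.19 to -0.06, that of H4 from -0.34 to -0.21 and that of all histone genes from -0.27 to -0.16; these moves were within 1 SD of the arrays' median deviations, an SD that scrambled replicate 3 itself widens. Each histone median stayed below 0 over the alternatives. Among single listed genes, HBB turned from 0.066 to -0.012 without scrambled replicate 2 (range without single arrays -0.012 to 0.123), and CDH1 from 0.14 to -0.0049 with array weights; neither passed in any of these fits. Same-numbered arrays did not deviate together (correlations of -0.054, -0.067 and -0.033), and no knockdown array correlated best with the scrambled array of its number. With the replicate block 3 histone genes (H2BC12, H2BC4 and H4C8) and 367 of all genes were called, and RRM2 was not (adjusted p = 0.0529). Other causes were not tested. Dim histone probe sets sit near background, where fold changes are compressed.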
